A study of Mus musculus with 10 samples.

Results

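Neutrophils cultured for 2 h without G-CSF were compared with neutrophils frozen directly after purification. The comparison uses 5 of the 10 arrays of the series. It covers the 15048 of 45281 probes that were detected (detection p-value below 0.05, where the p-value ranks a probe among the negative controls) on 2 or more of these arrays. All cells were circulating neutrophils of female nude NCR mice without tumors. The fresh control group has 2 arrays of untreated cells. The cultured group has 3 arrays with 1 condition each: no addition, mouse CCL2, or mouse CCL5, with the chemokines at 20 ng/ml in OptiMEM with 0.5% fetal bovine serum. Nude mice lack a thymus and carry few T cells. The labels used here give no age, number of pooled animals or purification marker. The remaining arrays hold 2 fresh samples of mice bearing 4T1 mammary tumors and 3 cultures with human recombinant G-CSF, with or without the same chemokines.

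Neutrophils are short-lived white blood cells that carry ready-made granule proteins and respond within minutes to hours to contact, cytokines and microbial products. Much of that response runs through NF-kB, a transcription factor held in the cytoplasm by inhibitors that are themselves NF-kB targets, and through MAP kinases, whose immediate early genes such as Fos are switched on and off within an hour.

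The 3 cultured arrays stand in for replicates of culture, although they differ in the added chemokine. Fresh cells and cultures are described as separate preparations, called experiments here, so culture cannot be told apart from the mice, the day, the purification and the array run of each. Between 13227 and 14694 probes were detected per array. Normalized values, on a log2 scale throughout, correlated across the tested probes at r = 0.987 for the fresh pair and 0.982 to 0.984 within the cultured trio, against 0.889 to 0.902 between a fresh and a cultured array. The probes are not independent replicates. Only 0.552% of the probes differed more than 2-fold within the fresh pair and 1.48% to 2.21% within the trio, against 21.9% to 24.6% between groups. The labels do not say whether replicates came from separate animals, so the p-values measure only the spread between these arrays.

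Some probes of the same gene moved in opposite directions between the experiments. Of 2976 genes with 2 or more tested probes, 109 (3.66%) had probes whose changes lay more than 2 log2 units apart, and 98 (3.29%) had probes past the test in both directions. Between the 2 fresh groups of the series these numbers were 6 and 2, and between cultures with and without G-CSF 8 and 13. Such counts also depend on how many probes change and by how much, which was not matched between the contrasts. For 118 genes, a probe separated all 4 fresh from all 6 cultured arrays by more than 2 log2 units.

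A marked case is the H2 complex, the major histocompatibility complex of the mouse, whose genes and probes below were picked after their values were seen. Of 11 H2 genes with 2 or more tested probes, 3 had probes past the test in both directions. For the class I gene H2-K1, 1 probe read 5.62 and 5.63 on the fresh control arrays and 11.31, 11.54 and 11.52 on the cultured arrays, while another read 9.26 and 9.09 against 6.43, 5.99 and 6.48. Of the probes of H2-D1, another class I gene, 1 read 4.51 and 4.63 against 12.54, 12.53 and 12.49, and the brightest read 13.73 and 13.69 against 13.49, 13.85 and 13.69. Among 3 probes of the class II gene H2-Ab1, 1 fell by 5.61 and another rose by 0.73. The single probe of H2-Ea, a class II chain that some mouse strains do not express, read 7.05 and 7.32 on fresh control arrays and 11.24, 11.43 and 11.10 on cultured ones.

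Beta-globin probes changed by very unequal amounts, from 0.33 on the probe of Hbb-b2, not past the test, to -7.29 on a probe of Hbb-bt. None passed the test as a rise. For Hbb-bt, 1 probe read 13.48 and 13.73 on fresh control arrays and 13.72, 13.66 and 13.66 on cultured arrays, and another read 12.32 and 12.21 against 5.24, 4.35 and 5.34. The change of 6 Hbb-bs probes ranged from -0.06 to -4.79, and Rasgrp4, a signalling gene of myeloid cells also picked after its values were seen, fell by 1.56 on 1 probe and by 4.49 and 4.94 on the others. The alpha-globin probe of Hba-a1, near the top of the scale on all 5 arrays, changed by 0.23 ± 0.18 (SE of the fit), which did not pass the test. Strains of laboratory mice differ in their H2 and beta-globin alleles, and a probe can fail on an allele that differs from its sequence. The labels give nude NCR for every mouse; whether the mice of both experiments carried different alleles was not tested. Each gene below is read from its brightest tested probe, and other tested probes are given beside it where they bear on the call. Signals of different probes cannot be ranked against each other. Of the 8335 genes tested, 5359 have only 1 tested probe.

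**Figure D1:**
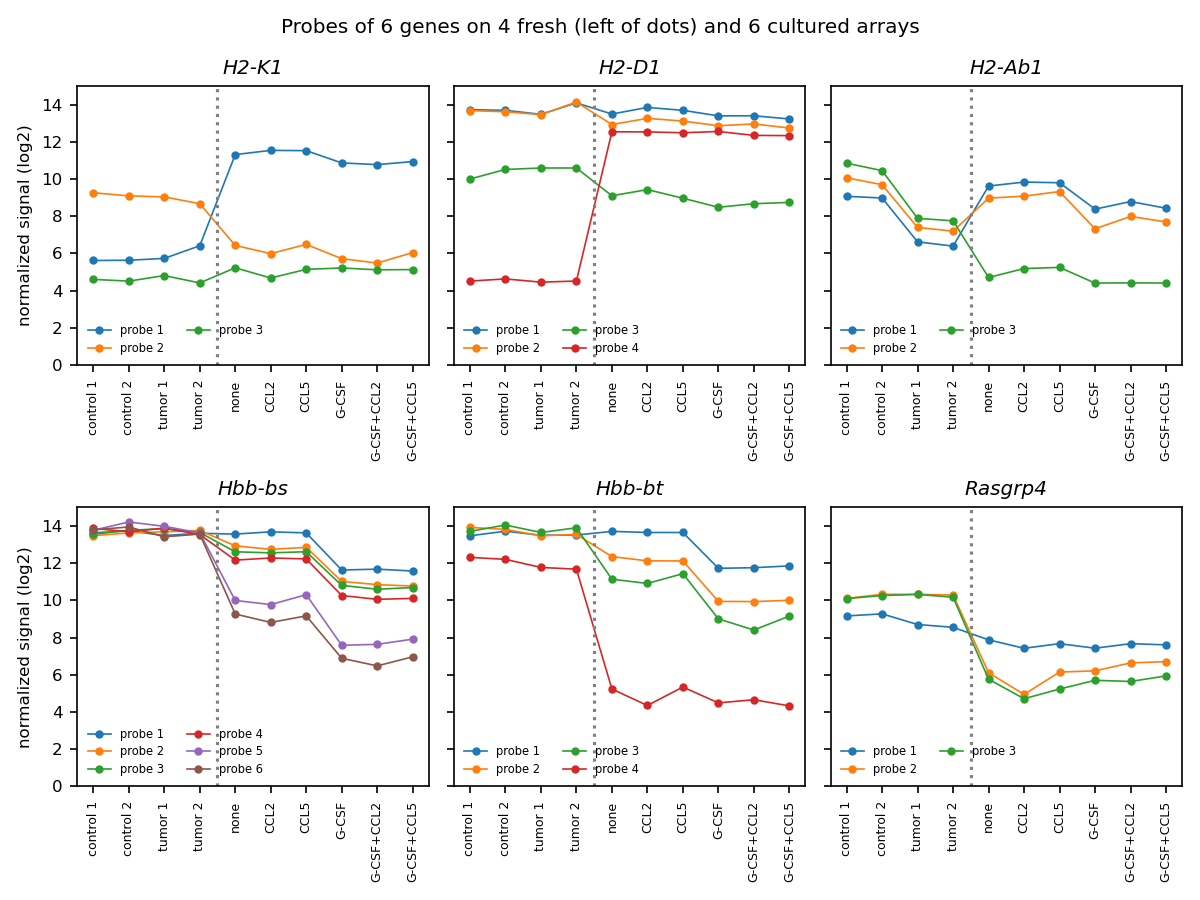
Normalized signal (log2, y axis) of every tested probe of 6 genes on the 4 fresh and 6 cultured arrays (x axis, fresh left of the dotted line), 1 line per probe. Probes of H2-K1 cross between the fresh and the cultured arrays, and probe 4 of H2-D1 rises from 4.51 and 4.63 on fresh control arrays to 12.49 and above on the cultured arrays without G-CSF, while its brightest probe stays between 13.49 and 13.85.

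Past the test, 1614 genes were higher and 1818 lower after culture (limma, Benjamini-Hochberg adjusted p below 0.05 over all probes), which is 19.4% and 21.8% of the 8335 genes; among the probes 41.5% passed. With arrays scaled on their medians instead, the higher genes made up 31.4% of those past the test in place of 47%, and the median change of all genes moved from -0.03 to -0.21. Small changes therefore depend on the scaling. Without fresh control replicate 1, 2196 genes and 3949 probes passed, against 3432 genes and 6245 probes with it; without fresh control replicate 2, 2290 genes passed. By size, 836 genes rose and 870 fell at least 2-fold, and 66 rose and 23 fell at least 8-fold. Where 2 or more probes were tested, all probes of 304 genes rose and all probes of 301 genes fell. The groups did not overlap in 62.3% of all tested genes, so separation alone says little about a gene.

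**Figure D2:**
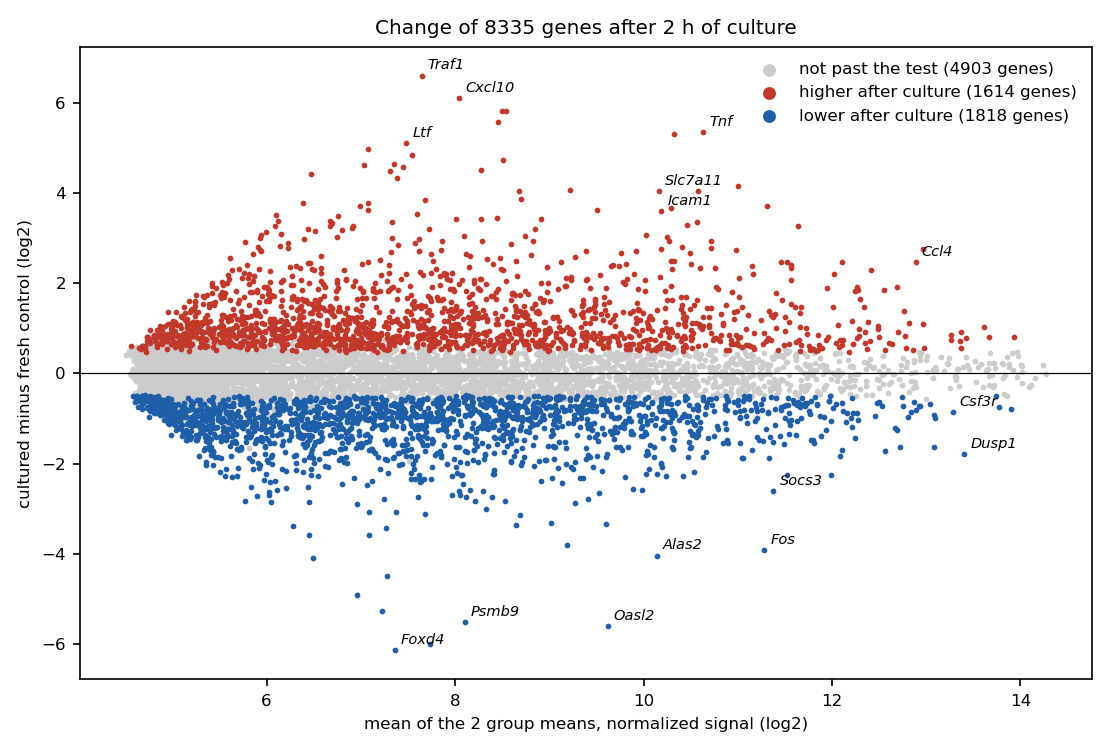
Change after culture (log2, y axis) of 8335 genes against their mean signal (log2, x axis), 1 point per gene, coloured by the test. Cxcl10, detected on all 5 arrays, lies at 6.11 and Oasl2, also detected on all 5, at -5.60, while the positions of Traf1 and Foxd4 rest on 1 group at background and have only a bound.

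NF-kB subunits and the inhibitors that NF-kB induces mostly rose. Of 16 tested members 11 rose (68.8%, against 19.4% of all genes) and 1 fell, with a median change of 1.75 against -0.03 for all genes. Traf1, an adaptor of TNF receptors, was not detected on the fresh arrays, at 4.31 and 4.37, and reached 10.93, 10.92 and 11.00 after culture with no addition, CCL2 and CCL5. That is a rise of at least 70.8-fold (adjusted p = 1.65e-07), and its second probe rose by 4.64. The bound sets each fresh array to no less than the lowest detected value on it, here as in each "at least" below. Changes given for further probes are plain differences and can include values at background. Relb, a subunit of the alternative NF-kB pathway, went from 7.54 and 7.44 to 9.85, 10.36 and 10.14, a rise of 2.63 ± 0.20 (adjusted p = 2.55e-05). All cultured arrays lay above both fresh arrays for each of these genes. Of all tested genes, 62.3% were separated in either direction.

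Among the inhibitors, Tnip1, which binds the ubiquitin editor A20, went from 10.36 and 10.21 to 12.57, 12.87 and 12.84 (rise 2.47 ± 0.18, adjusted p = 2.15e-05), and its 3 other probes rose by 1.68 to 3.03. Tnfaip3, which encodes A20 itself, went from 8.70 and 8.88 to 11.03, 11.06 and 10.93 (rise 2.22 ± 0.17). Zc3h12a, an RNase that degrades cytokine mRNAs, rose by 1.64 ± 0.22 and by 1.70 on its other probe. The lone member that fell was Tnip2, a relative of Tnip1, by 0.87 (SE 0.18, adjusted p = 0.00464, or 0.0576 without fresh control replicate 1). Rela, the main activating subunit, changed by 0.37 ± 0.18 and Nfkbiz by -0.03 ± 0.18, neither past the test.

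The promoters of 5 induced genes are shown because each holds matches to the 10-base consensus site of NF-kB, marked in capitals on either strand. Each runs from 250 bases before to 50 bases after the first start listed by RefSeq on GRCm38.p6, 5′ to 3′ on the strand of the gene. Tnip1 lies at chr11:54962891-54963190 (minus strand), Tnfaip3 at chr10:19015361-19015660 (minus strand), Cxcl10 at chr5:92348840-92349139 (minus strand), Cxcl1 at chr5:90890995-90891294 (plus strand) and Ebi3 at chr17:55952373-55952672 (plus strand).
Tnip1: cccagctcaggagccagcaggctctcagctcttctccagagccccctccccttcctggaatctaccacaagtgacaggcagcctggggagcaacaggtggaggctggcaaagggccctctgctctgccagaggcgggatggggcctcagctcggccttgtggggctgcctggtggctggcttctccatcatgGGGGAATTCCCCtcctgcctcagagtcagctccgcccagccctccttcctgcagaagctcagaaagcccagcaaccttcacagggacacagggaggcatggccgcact
Tnfaip3: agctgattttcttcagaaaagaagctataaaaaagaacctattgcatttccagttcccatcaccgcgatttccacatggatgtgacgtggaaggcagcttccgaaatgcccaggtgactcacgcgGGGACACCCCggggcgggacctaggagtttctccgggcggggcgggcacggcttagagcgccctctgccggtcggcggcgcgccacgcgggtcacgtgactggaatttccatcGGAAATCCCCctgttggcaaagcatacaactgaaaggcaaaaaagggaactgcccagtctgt
Cxcl10: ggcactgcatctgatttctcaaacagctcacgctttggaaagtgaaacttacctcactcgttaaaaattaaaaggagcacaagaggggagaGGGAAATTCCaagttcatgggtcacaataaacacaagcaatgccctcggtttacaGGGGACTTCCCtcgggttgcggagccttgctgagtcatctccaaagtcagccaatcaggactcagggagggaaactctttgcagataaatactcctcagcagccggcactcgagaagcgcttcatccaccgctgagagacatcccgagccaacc
Cxcl1: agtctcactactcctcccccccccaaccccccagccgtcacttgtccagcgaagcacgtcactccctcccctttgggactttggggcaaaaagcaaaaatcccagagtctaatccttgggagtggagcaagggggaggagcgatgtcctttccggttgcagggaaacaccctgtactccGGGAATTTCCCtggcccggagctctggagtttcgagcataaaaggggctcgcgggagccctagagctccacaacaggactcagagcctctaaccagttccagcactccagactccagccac
Ebi3: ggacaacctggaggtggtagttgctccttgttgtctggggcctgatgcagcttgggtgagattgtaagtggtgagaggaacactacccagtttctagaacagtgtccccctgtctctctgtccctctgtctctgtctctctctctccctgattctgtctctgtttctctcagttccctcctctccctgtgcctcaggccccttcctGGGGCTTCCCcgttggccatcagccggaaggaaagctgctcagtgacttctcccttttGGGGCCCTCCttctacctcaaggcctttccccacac
In Tnip1, 3 overlapping matches begin 56 to 58 bases before the start, and in Cxcl1 a pair begins 70 and 71 bases before it. Cxcl10 holds an overlapping pair and a further match at 159 bases. Such a match was present in 8.18% of the 27025 genes with a promoter in the table and in 9.94% of the tested genes that have one. It was present in 18.2% of the genes that rose at least 4-fold (32 of 176), in 10.3% of those that fell at least 4-fold (11 of 107), and in 7 of 14 promoters of the NF-kB group. The AP-1 site TGANTCA was found in 5.41% of tested promoters and in 10.8% of those that rose at least 4-fold (19 of 176). These windows of Traf1, Tnf and Il1a hold no match to the NF-kB consensus. A match is a string of letters and not a measured binding site.

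The inflammatory mediators Tnf, Cxcl10 and Cxcl1 rose. Of 13 tested CC and CXC chemokines 8 rose and 2 fell (61.5% and 15.4%, median change 1.47), and of 18 cytokines and TNF family members 10 rose and 2 fell (55.6% and 11.1%, median 0.86), against 19.4% and 21.8% of all genes. Cxcl10, an attractant of T cells, went from 4.88 and 5.09 to 10.73, 11.46 and 11.11, a rise of 6.11 ± 0.23 (adjusted p = 8.53e-07). Cxcl1, which attracts neutrophils through Cxcr2, went from 6.23 and 5.81 to 10.24, 10.80 and 10.55 (rise 4.51 ± 0.22, adjusted p = 3.02e-06). For both genes the culture with CCL2 was the highest and the culture without chemokine the lowest, with 1 array each. Ccl3 and Ccl4, inflammatory chemokines of the CC class, both rose. Ccl3 went from 10.87 and 10.88 to 13.22, 13.38 and 13.42, and Ccl4 from 11.74 and 11.55 to 14.01, 14.22 and 14.14, each a rise of 2.47.

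The chemokine that fell most was Ccl6, at 11.53 and 11.69 in fresh and 9.95, 10.43 and 9.82 in cultured cells (adjusted p = 6.31e-04). Ccl5, the gene of 1 of the added proteins, fell by 0.81 (SE 0.22, adjusted p = 0.0162), from 8.51 and 8.36 to 7.85, 7.26 and 7.77. That call was lost without either fresh replicate (adjusted p = 0.113 without replicate 1 and 0.0652 without replicate 2). The probes for Ccl2 and for the receptors Ccr1 and Ccr2 did not pass the detection filter.

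Tnf, the founding cytokine of its family, went from 7.94 and 7.98 to 13.34, 13.48 and 13.12, a 40.9-fold rise (log2 5.35 ± 0.18, adjusted p = 5.59e-07), and its other probe rose by 4.80. Il1a, an alarm cytokine, was not detected in fresh cells and read 6.77, 7.69 and 7.50 after culture, at least 5.72-fold higher (adjusted p = 1.04e-04). Il18 rose by 2.64 ± 0.20 and Ebi3, a shared chain of IL-27 and IL-35, by 2.43 ± 0.18. Il1b, the main inflammatory cytokine of neutrophils, was at 13.70 and 13.93 in fresh cells and 14.04, 13.96 and 13.85 after culture, a difference of 0.14 ± 0.18 that did not pass the test. These values lie near the top of the scale, where a further rise may not show. Osm, a relative of IL-6, fell from 11.97 and 12.03 to 10.01, 10.63 and 10.26 (adjusted p = 3.44e-04), and Tnfsf14, which encodes LIGHT, from 10.47 and 10.54 to 9.23, 9.28 and 9.17 (other probes -0.92 and -0.56, the last not past the test).

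Receptor genes were counted by kind, against 19.4% and 21.8% of all genes that rose and fell; differences between the kinds were not tested. Of 17 chemoattractant receptors 5 rose and 5 fell (29.4% each, median -0.04; 3 fell without fresh control replicate 2). Of 18 cytokine receptors 9 rose and 2 fell (50% and 11.1%, median 0.47; 6 rose without fresh control replicate 2). Of 21 Toll-like and other pattern recognition genes 10 rose and 1 fell (47.6% and 4.76%, median 0.62). Gpr84, a receptor for medium-chain fatty acids that inflammatory signals induce, went from 5.43 and 5.73 to 11.09, 11.57 and 11.56 (rise 5.83 ± 0.21, adjusted p = 8.24e-07; other probe 5.20). Ptafr, the receptor of platelet-activating factor, rose by 1.85 ± 0.19 and C5ar1, the C5a receptor, by 1.35 ± 0.26. Cxcr2, a receptor of neutrophil chemokines, went from 12.73 and 13.05 to 12.28, 12.12 and 12.12, a fall of 0.71 (SE 0.18, adjusted p = 0.0133), which did not pass without fresh control replicate 2 (adjusted p = 0.124) or with scaling on detected probes (0.0979). Cxcr1, its relative, fell by 1.19 (SE 0.19) and Ltb4r1, the leukotriene B4 receptor, by 1.45 (SE 0.20).

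Csf3r, the receptor of G-CSF, read 13.75 and 13.68 in fresh and 12.77, 12.84 and 12.93 in cultured cells (adjusted p = 0.00353); of its 4 other probes 1 fell by 1.00 and 3 did not pass, at -0.48, -0.37 and -0.03. Il10ra, the ligand-binding chain of the IL-10 receptor, rose from 8.34 and 8.51 to 10.95, 11.14 and 11.19 (adjusted p = 1.24e-05), and Il1rap, the shared chain of IL-1 receptors, by 1.78 ± 0.20, with 4 of its 5 other probes also past the test (0.75 to 1.94). Fas, the death receptor, rose by 1.47 ± 0.17, although 1 of its other 2 probes fell by 0.95. In the recognition group Irak2, a kinase downstream of Toll-like receptors, rose by 2.93 ± 0.18 (3.30 and 2.26 on its other probes), Tlr7, a sensor of single-stranded RNA, by 2.53 ± 0.18, Nod1, a sensor of peptidoglycan, by 2.33 ± 0.18, and Clec4e, the receptor Mincle, by 2.06 ± 0.18. Tlr1 was the member that fell, by 0.74 (SE 0.21, adjusted p = 0.0198), a call lost without either fresh replicate (adjusted p = 0.125 and 0.0777).

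Among 15 adhesion genes 5 rose and 3 fell, shares of 33.3% and 20% against 19.4% and 21.8% of all genes, and 3 rose without fresh control replicate 1. Icam1, an integrin ligand and NF-kB target, went from 8.47 and 8.30 to 11.87, 12.10 and 12.00, a 12.2-fold rise (adjusted p = 2.89e-06). The tetraspanin Cd9 rose by 2.30 ± 0.20. Itga4, an integrin chain that binds VCAM-1, fell by 2.24 on its brightest probe, by 0.85 on another, and by 0.26 on the last, which did not pass. Selplg, the P-selectin ligand, fell by 0.98 (SE 0.20).

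**Figure D3:**
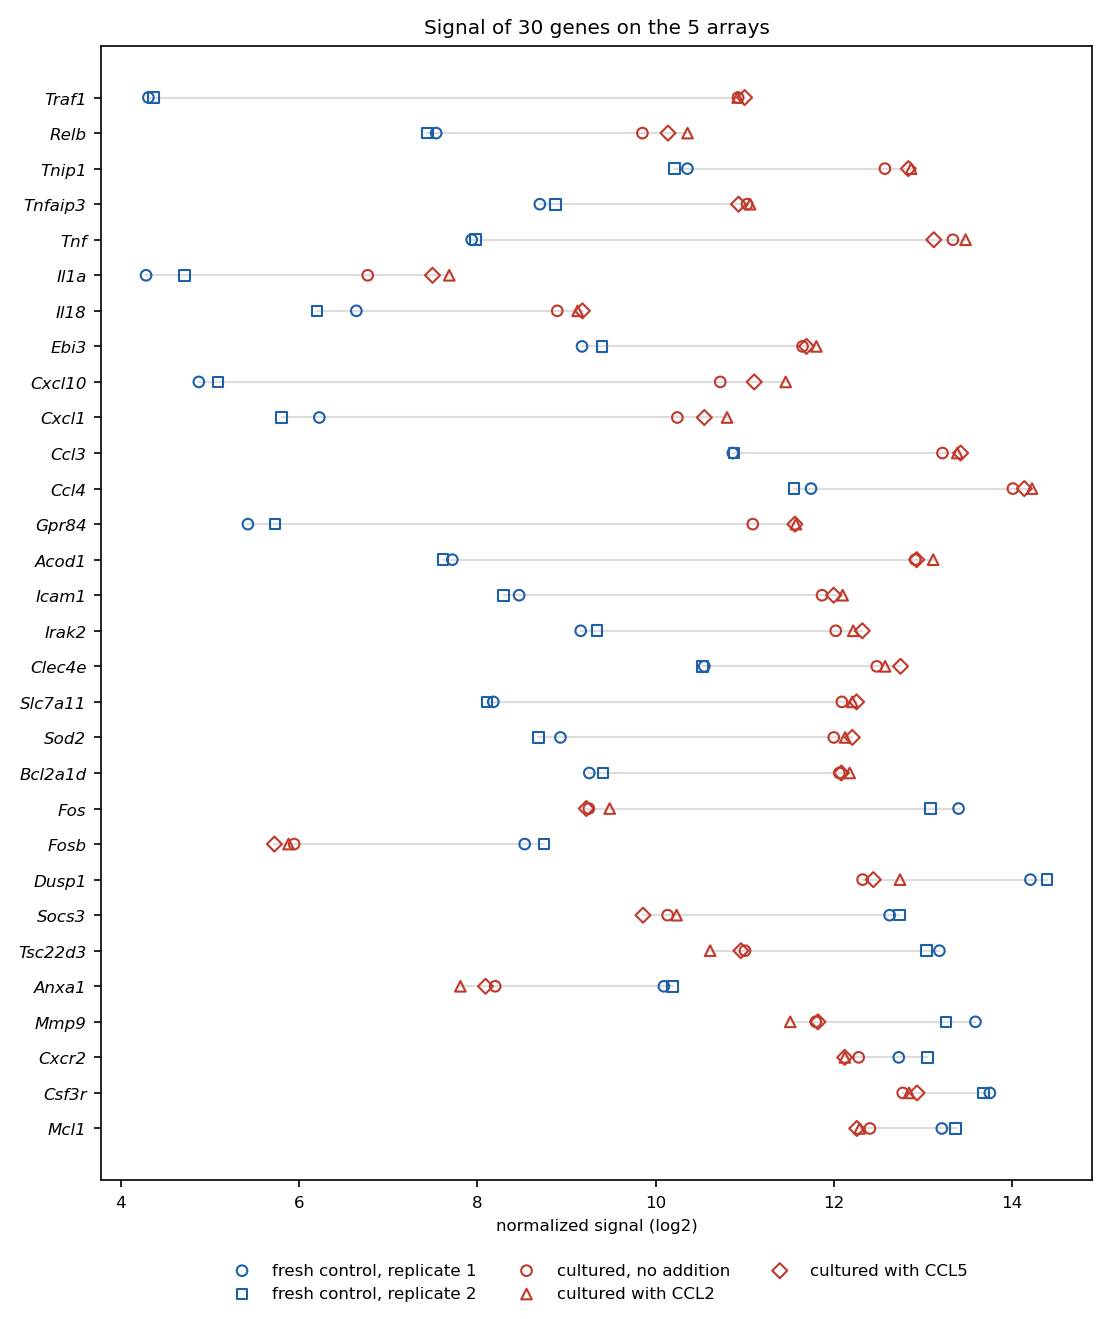
Normalized signal (log2, x axis) of 30 named genes (y axis) on the 5 arrays, 1 symbol per array, blue for fresh and red for cultured. All 30 genes passed the test. The groups did not overlap in any of the 3432 genes that passed, so the separation here follows from that choice. They did not overlap in 62.3% of all tested genes. Examples are Traf1 (4.31 and 4.37 against 10.92 to 11.00) and Mcl1 (13.21 and 13.37 against 12.26 to 12.40).

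The AP-1 gene Fos fell, while Egr3 and Egr2 rose. Of 24 tested immediate early genes 6 rose and 8 fell (25% and 33.3%, against 19.4% and 21.8% of all genes; 5 fell without fresh control replicate 2), with a median change of -0.12, which was -0.26 with arrays scaled on their medians and 0.05 with scaling on detected probes. Fos, a subunit of AP-1, read 13.40 and 13.08 in fresh cells and 9.25, 9.49 and 9.22 after culture, a 15.1-fold fall (adjusted p = 2.75e-06). Its relative Fosb went from 8.53 and 8.75 to 5.95, 5.88 and 5.73, and Jund fell by 1.40 (SE 0.17). Csrnp1, a nuclear protein of the same early class, fell by 2.04 (SE 0.21). The risers named below are transcription factors of other families. Egr3 went from 6.38 and 5.88 to 10.74, 10.90 and 11.00 (adjusted p = 1.33e-06), although its other probe changed by 0.20 and did not pass. Egr2 went from 7.37 and 7.01 to 9.66, 10.01 and 9.60. Nr4a3, an orphan nuclear receptor, was not detected in fresh cells and rose at least 5.38-fold (other probe 2.19), and Crem, a cAMP-responsive factor, rose by 2.12 ± 0.20 (other probes 1.13, 1.29 and 0.92, the last not past the test).

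Phosphatases and Sprouty-like proteins that restrain MAP kinases rose in 6 of 10 tested cases (60% against 19.4% of all genes, median 0.94) and fell in 2; without fresh control replicate 2, 4 rose. Dusp2 went from 10.14 and 9.98 to 12.04, 12.44 and 12.33 (adjusted p = 4.70e-05; other probe 2.12), Dusp16 rose by 2.71 ± 0.18, Dusp5 by 1.94 ± 0.20, and Spred1, which inhibits Ras signalling, by at least 7.46-fold from below detection. Dusp1, the phosphatase that glucocorticoids and stress induce, was at 14.20 and 14.39 in fresh cells and 12.32, 12.74 and 12.44 in cultured ones, a fall of 1.80 (SE 0.19, adjusted p = 1.54e-04). Dusp7 fell by 1.16.

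Feedback genes of STAT3 and targets of the glucocorticoid receptor were counted against the shares of all genes (19.4% rose, 21.8% fell). Of 16 STAT3 feedback genes 4 rose and 6 fell (25% and 37.5%). Of 20 glucocorticoid receptor targets 5 rose and 6 fell (25% and 30%). Without background correction the falls were 9 and 7. Without fresh control replicate 2 the rises were 2 and 3. Socs3, the inhibitor that STAT3 induces, fell from 12.63 and 12.74 to 10.14, 10.24 and 9.86 (adjusted p = 1.86e-05). Stat3 itself fell by 1.40 (SE 0.17), by 0.94 on another probe and by 0.30 on the last, which did not pass. Pim3, a kinase, fell by 1.72, while Socs2 rose by 1.66 ± 0.22. Tsc22d3, which encodes GILZ, an anti-inflammatory mediator of glucocorticoids, fell from 13.18 and 13.04 to 11.00, 10.61 and 10.96 (adjusted p = 4.43e-05; other probes -1.75 and -0.50, the latter not past the test). Anxa1, the annexin through which glucocorticoids act on neutrophils, fell from 10.09 and 10.19 to 8.20, 7.81 and 8.09, and the transcription factor Zbtb16 by 1.93. Gadd45b, a stress sensor listed in both groups, rose by 2.76 ± 0.22 (other probe 2.34), and its relative Gadd45a fell by 1.89. Of 12 clock genes 5 rose and 1 fell (41.7% and 8.33%; 3 rose and 2 fell with arrays scaled on their medians, and 3 rose and none fell without fresh control replicate 2); Per2 rose by 1.39 ± 0.18 (other probes 1.11 and 0.46, the last not past the test) and Bhlhe40, a repressor of the clock, by 1.40 ± 0.17.

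The A1 survival genes rose and Mcl1 fell. In the Bcl2 family 8 of 16 rose and 5 fell (50% and 31.2% against 19.4% and 21.8% of all genes, median 0.58). The A1 genes, survival factors that NF-kB induces, rose: Bcl2a1d went from 9.26 and 9.41 to 12.06, 12.18 and 12.08 (adjusted p = 8.62e-06; other probe 4.46), Bcl2a1b from 9.13 and 9.02 to 11.87, 11.24 and 11.62, and Bcl2a1c from 5.05 and 5.19 to 9.80, 10.09 and 9.99. These genes are near-identical copies, and probes can share transcripts. Mcl1, the short-lived survival protein of neutrophils, fell from 13.21 and 13.37 to 12.40, 12.29 and 12.26 (adjusted p = 0.00209). Of the death-promoting members, Bcl2l11, which encodes Bim, rose by 2.31 ± 0.18 on its brightest probe and by 1.18 to 2.88 on 3 others. Bbc3, which encodes Puma, fell by 1.55 (SE 0.21), with other probes at -0.20 and -0.49 that did not pass, and Bad fell by 1.24. Among 15 caspases and adaptors 7 rose and 2 fell (46.7% and 13.3%). Cflar, the inhibitor of caspase-8, rose by 1.99 ± 0.18, and Apaf1, the scaffold of the apoptosome, fell by 1.11 (other probes -1.43 and -0.20, the last not past the test). Of 12 p53 targets 3 rose and 4 fell (25% and 33.3%, near the shares of all genes), with Cdkn1a at a rise of 1.15 ± 0.18 (other probes 0.83 and 0.01, neither past the test) and Trp53inp1 at a fall of 1.62 (2.63 on its other probe).

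None of 14 heat shock genes rose and 6 fell (42.9% against 21.8% of all genes, median -0.33). Without fresh control replicate 1 only 3 fell, and without replicate 2 or the culture with no addition, 4. Hspa1a, the inducible Hsp70, read 5.82 and 5.69 in fresh cells and was not detected after culture, at least 1.82-fold lower (adjusted p = 0.00126). Ahsa1, a helper of Hsp90, fell by 1.00 (SE 0.19). With arrays scaled on detected probes 1 of the 14 rose and 5 fell. Of 19 antioxidant genes 6 rose and 5 fell (31.6% and 26.3%, against 19.4% and 21.8% of all genes). Slc7a11, the cystine importer that Nrf2 and Atf4 induce, went from 8.18 and 8.11 to 12.09, 12.21 and 12.25, a 16.4-fold rise (adjusted p = 1.15e-06), and its 3 other probes rose by 0.80 to 4.38. Its partner chain Slc3a2 rose at least 2.14-fold. Sod2, mitochondrial superoxide dismutase and an NF-kB target, went from 8.93 and 8.69 to 12.00, 12.13 and 12.21. Srxn1, which repairs peroxiredoxins, rose by 3.27 ± 0.23, and Sqstm1, an autophagy receptor, by 2.48 ± 0.20. Cat, which encodes catalase, fell by 1.37, and Atf4, a factor of the integrated stress response, by 1.27 (SE 0.17). Txn1, thioredoxin, fell by 1.64 on its brightest probe, while its other probe was 0.55 higher and did not pass.

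In glycolysis and the hypoxia response 6 of 25 genes rose and 7 fell (24% and 28%), close to the shares of all genes; 4 fell without fresh control replicate 1. Pfkp, a phosphofructokinase, went from 6.32 and 6.82 to 9.52, 9.72 and 9.59 (adjusted p = 1.23e-05; other probe 1.78). Slc2a3, the main glucose transporter of neutrophils, fell from 12.83 and 12.79 to 11.70, 11.52 and 11.63, the enzyme gene Pgk1 by 0.99, and Ndrg1, a hypoxia target, by 1.49 (2.09 on its other probe). Of 21 proteasome subunits 10 rose and none fell (47.6% against 19.4%), with a median of 0.47. Psmb1 rose from 6.83 and 6.87 to 9.50, 9.56 and 9.33 (adjusted p = 1.23e-05), Psmb6 by 1.11 ± 0.19 and Psmb7 by 0.97 ± 0.18. This count was 4 without fresh control replicate 2, 6 without replicate 1 or the culture with CCL5, 5 with arrays scaled on their medians and 13 without background correction. Psmd8, a proteasome subunit outside that list and 1 of the 15 largest falls, read 9.55 and 9.51 in fresh cells and 5.25, 4.40 and 5.44 after culture on its only probe. Hif1a, the oxygen-regulated factor itself, rose by 1.23 ± 0.22. Of 26 genes of the respiratory chain 2 rose and 4 fell, and of 17 cytosolic ribosomal proteins none rose and 2 fell. Without background correction these were 7 rises and 5 falls, and 1 rise and 6 falls, so no order against the shares of all genes is given. Uqcrq, a subunit of complex III, fell by 2.24 and Sdhd, of complex II, by 1.69, each on 1 probe.

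**Figure D4:**
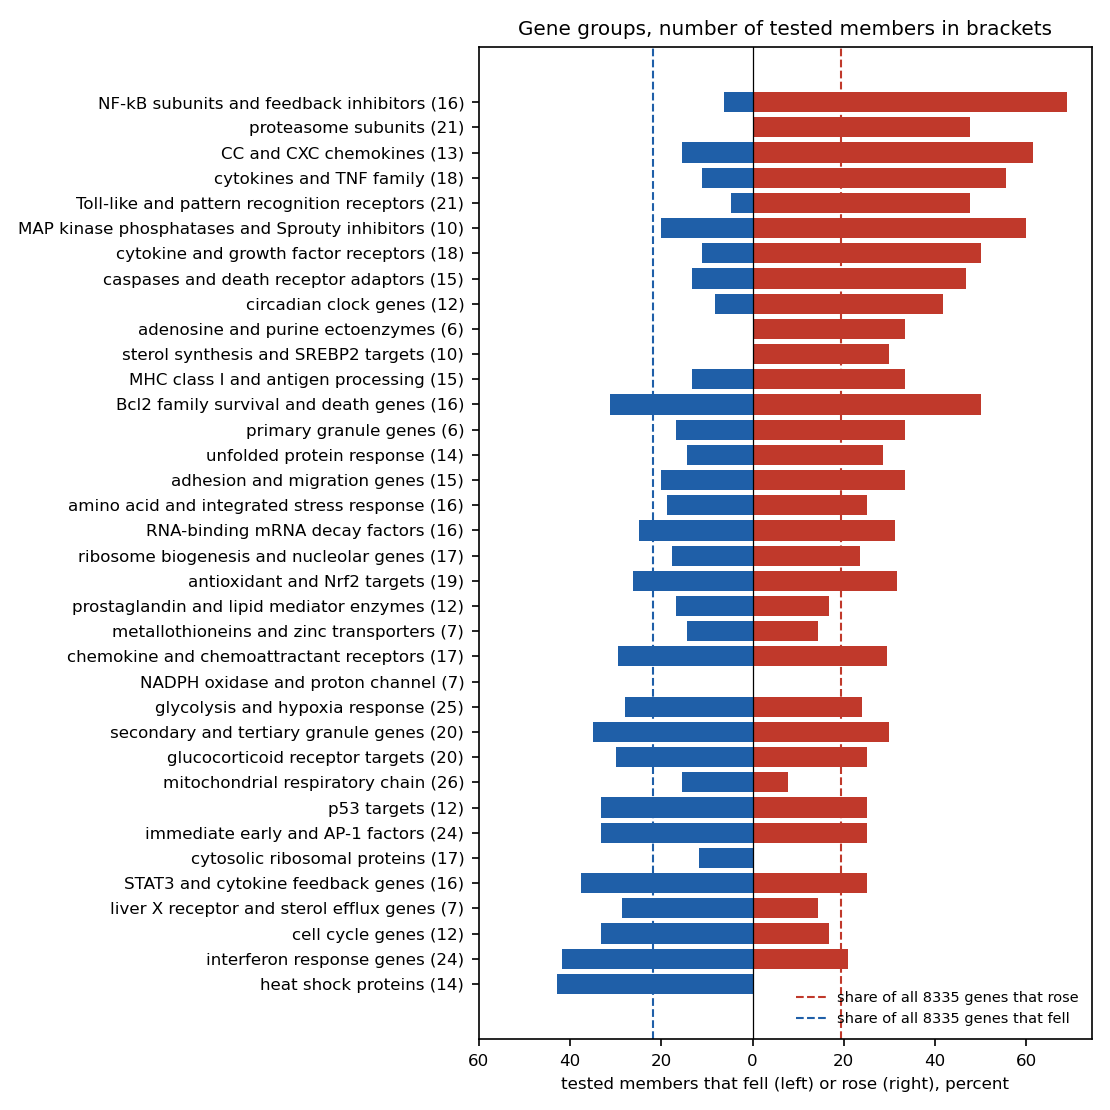
Share of tested members that rose (red, right) or fell (blue, left), in percent, for 36 gene groups, with dashed lines at the shares of all genes (19.4% rose, 21.8% fell). The bars show 68.8% of the NF-kB group as rises and 42.9% of the heat shock genes as falls, the latter a count of 6 that drops to 3 without fresh control replicate 1.

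Lactoferrin and the inhibitor Slpi rose, and gelatinase B fell. None of 7 genes of the NADPH oxidase, which makes superoxide, passed the test: Cybb changed by 0.43 ± 0.21 and Ncf1 by 0.45 ± 0.18, and Ncf1 did pass as a rise in several other settings (adjusted p = 0.00419 without background correction). In that setting 2 of the 7 rose and 1 fell. Of 20 secondary and tertiary granule genes 6 rose and 7 fell (30% and 35%, against 19.4% and 21.8% of all genes; 5 and 10 with arrays scaled on their medians). Ltf, lactoferrin, went from 4.95 and 4.90 to 9.94, 9.98 and 10.20 (adjusted p = 5.59e-07) on its only probe. Its fresh values lie close to the lowest detected signals of those arrays, 4.79 and 4.81. Whether this single probe failed on a different allele was not tested. Slpi, an elastase inhibitor, went from 8.80 and 8.32 to 12.55, 12.56 and 12.70, Olfm4, a marker of a neutrophil subset, rose by 2.39 ± 0.18, and Ngp, a granule protein of immature cells, by 1.73 ± 0.21. Camp, the cathelicidin stored with lactoferrin, changed by -0.25 ± 0.18 and did not pass. Mmp9, gelatinase B, fell from 13.59 and 13.26 to 11.80, 11.51 and 11.82 (adjusted p = 2.00e-04), and Padi4, the enzyme that citrullinates histones, by 1.16. Of 6 primary granule genes 2 rose and 1 fell (33.3% and 16.7%), the latter Prtn3 by 0.65. That last call was lost in several settings, as with the authors' processed values (adjusted p = 0.107). Ltc4s, leukotriene C4 synthase, rose from 5.64 and 5.66 to 9.01, 8.83 and 9.21, and Pla2g7, which inactivates platelet-activating factor, fell by 2.16. Nt5e, the ectoenzyme CD73 that makes adenosine, went from 5.90 and 5.63 to 9.45, 9.59 and 9.78 (adjusted p = 2.89e-06; other probe 2.42). Acod1, which makes the antimicrobial metabolite itaconate, went from 7.72 and 7.62 to 12.91, 13.11 and 12.93, a 39.8-fold rise (other probe 6.11).

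Interferon response genes fell in 10 of 24 cases and rose in 5 (41.7% and 20.8%, against 21.8% and 19.4% of all genes). Among the risers were Cxcl10, at 6.11 the largest change of the list, and Gbp5, Irf7 and Gbp3. With arrays scaled on their medians 13 fell and 3 rose, and without fresh control replicate 1, 8 fell and 2 rose (8 and 3 without replicate 2). Ifit3 went from 10.56 and 10.41 to 7.96, 8.36 and 8.17 (adjusted p = 3.47e-05; other probe -1.68), Ifi47 fell by 1.91 and Stat2, a subunit of the interferon-activated complex, by 1.51. Oasl2 read 12.55 and 12.29 in fresh and 6.88, 6.97 and 6.60 in cultured cells, and its other probes fell by 4.03 and 2.88. Oasl2 is among the 118 of 8335 genes with a probe whose 4 fresh and 6 cultured arrays lie over 2 log2 units apart. So are Psmb9 (10.92 and 10.80 against 5.22, 5.43 and 5.40, 1 probe) and H2-Q6 (5.60 and 5.73 against 11.21, 11.12 and 11.41). In the class I group 5 of 15 rose and 2 fell (33.3% and 13.3%). H2-T23, which encodes Qa-1, rose by 2.66 and 2.46 on 2 probes, and its last probe was not detected on the fresh arrays. A probe of H2-T10 read 7.96 and 7.99 on the fresh arrays and 4.98, 4.41 and 4.36 on the cultured ones, below the lowest detected signal with CCL2 and CCL5, while the other read 4.96 and 4.88 against 5.13, 4.95 and 5.22. In view of the opposed probes, no direction is drawn for H2 genes.

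Other large changes fell outside these groups. Havcr2, the checkpoint receptor TIM-3, was not detected in fresh cells and read 9.29, 9.93 and 9.48 after culture, at least 27.2-fold higher, with 4.39 on its other probe. Pla1a, a phosphatidylserine phospholipase, rose by 4.58 ± 0.25 and by 1.91 and 2.13 on its other probes. Ggct, an enzyme of glutathione turnover, rose by 4.65 ± 0.17 and by 1.52 to 1.80 on 3 others, and Hebp1, a heme-binding protein, at least 23.2-fold on 1 probe. Foxd4, a forkhead factor, read 10.41 and 10.45 in fresh cells and was not detected after culture, at least 46.6-fold lower on its only probe. Pdlim4, an actin-binding protein, fell from 10.80 and 10.67 to 4.53, 4.72 and 4.95, where 1 of the 3 cultured arrays detected it, and by 3.44 on its other probe. Tmem71, Abhd16a and Atp13a4 were not detected after culture on their single probes, at least 31.3-, 23.1- and 12.6-fold lower. Between G-CSF cultures and fresh cells of tumor-bearing mice, Foxd4 changed by -6.70, Tmem71 by -4.78, Abhd16a by -4.55 and Atp13a4 by -1.83. Whether such single probes failed on a different allele was not tested. Fbxo31, a subunit of a ubiquitin ligase, fell by 3.81 and by 2.62 and 2.74 on its other probes, Plin5, a lipid droplet protein, at least 10.3-fold (other probe -1.03), Dck, deoxycytidine kinase, fell by 3.59, and Chil5, a chitinase-like protein, fell by 3.42.

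Neutrophil markers summed to nearly the same level in both groups. The linear signals of 17 tested markers added up to 103897 to 111267 on the fresh arrays and 106931 to 109993 on the cultured arrays. The brightest probes carry this sum, and quantile normalization makes the top of the scale alike on every array. The sum therefore cannot show whether the neutrophil content was equal. The calcium-binding proteins S100a8 and S100a9, which fill the neutrophil cytosol, changed by 0.45 ± 0.17 and -0.25 ± 0.18, neither past the test; S100a8 passed in other settings (adjusted p = 0.00177 without background correction). S100a9 read 13.91 and 13.78 on the fresh arrays and 13.50, 13.48 and 13.81 on the cultured ones, so defining markers of the labelled cell type were present in both, although the probe of Elane was below the filter. Within the list 6 rose and 5 fell (35.3% and 29.4%, against 19.4% and 21.8% of all genes). Fewer fell without fresh control replicate 1. Among the 5 was Retnlg, a resistin-like protein, with a fall of 0.75, a call lost without that replicate.

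Markers of other blood cells differed too, and in bulk RNA fewer cells of a type and less RNA per cell cannot be told apart. The 6 tested T cell markers summed to 1766 to 1865 on the fresh and 3765 to 4008 on the cultured arrays. Of these markers 3 were higher and 2 lower (50% and 33.3%, against 19.4% and 21.8% of all genes). Most of the rise of the T cell sum lay in Cd3d alone, which went from 10.04 and 10.19 to 11.69, 11.61 and 11.60. Thy1 fell from 7.57 and 7.87 to 6.78, 6.19 and 6.70, and the probes of Cd4 and Cd8a were below the filter. B cell markers summed to 2522 to 3003 against 1898 to 2072, where Cd22 fell by 2.45. The 3 tested NK markers summed to 1020 to 1137 against 513 to 681. All 3 fell (100%, against 21.8% of all genes), Nkg7 by 1.37, and fewer passed without fresh control replicate 1. Monocyte markers summed to 2796 to 2857 against 2239 to 2302, with 1 of 6 higher and 3 lower (16.7% and 50%), where Fn1 fell by 1.64. Class II and dendritic markers summed to 4966 to 6779 against 5894 to 6032. The only tested probe of H2-Eb1, part of that sum, read 6.69 and 6.62 on the fresh and 10.70, 10.68 and 10.74 on the cultured arrays. H2-Ab1, whose probes moved in opposite directions, is also part of it. The sum therefore cannot show whether the content of these cells was equal. Eosinophil, basophil and mast markers summed to 455 to 477 against 262 to 373. Of these last 6 markers 3 fell (50%), among them Cpa3 by 2.41, and 3 did not pass. Without background correction 1 of the 6 passed as a rise. Platelet markers summed to 141 to 183 against 99 to 135. Red cell markers summed to 17123 to 17596 against 13903 to 15250, with no rise or fall of Hba-a1 past the test; Alas2, the heme synthesis enzyme of young red cells, went from 12.52 and 11.81 to 7.90, 8.13 and 8.33 and Slc4a1, the band 3 anion exchanger, fell by 2.44. The part of these cells in the changes above was not tested. Probes of Klrb1c, Ncr1, Klrk1, H2-Aa, Flt3, Siglecf, Epx, Ms4a2 and Gp9, among others, were below the filter.

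The other 5 arrays allow the same kind of contrast without a shared array, with G-CSF in the cultures and tumors in the fresh donors. Cultured cells with G-CSF against fresh cells of tumor-bearing mice gave 4683 genes past the test, or 56.2% of 8335. Of the 3432 genes past the test in culture without G-CSF, 2346 also passed there with the same sign, which is 68.4% of the first set and 50.1% of the other; 173 passed with the opposite sign. The 2 contrasts differ in both G-CSF and tumor, and they share the separation into a fresh and a cultured experiment. Tnf rose by 4.93 there, Gpr84 by 5.37, Icam1 by 4.76 and Slc7a11 by 4.73, and Fos changed by -4.38 and Socs3 by -2.90. The rise of Acod1 was 5.32 without and 2.27 with G-CSF and tumor, that of Egr3 4.75 and 1.53, and that of Nt5e 3.84 and 0.77.

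**Figure D5:**
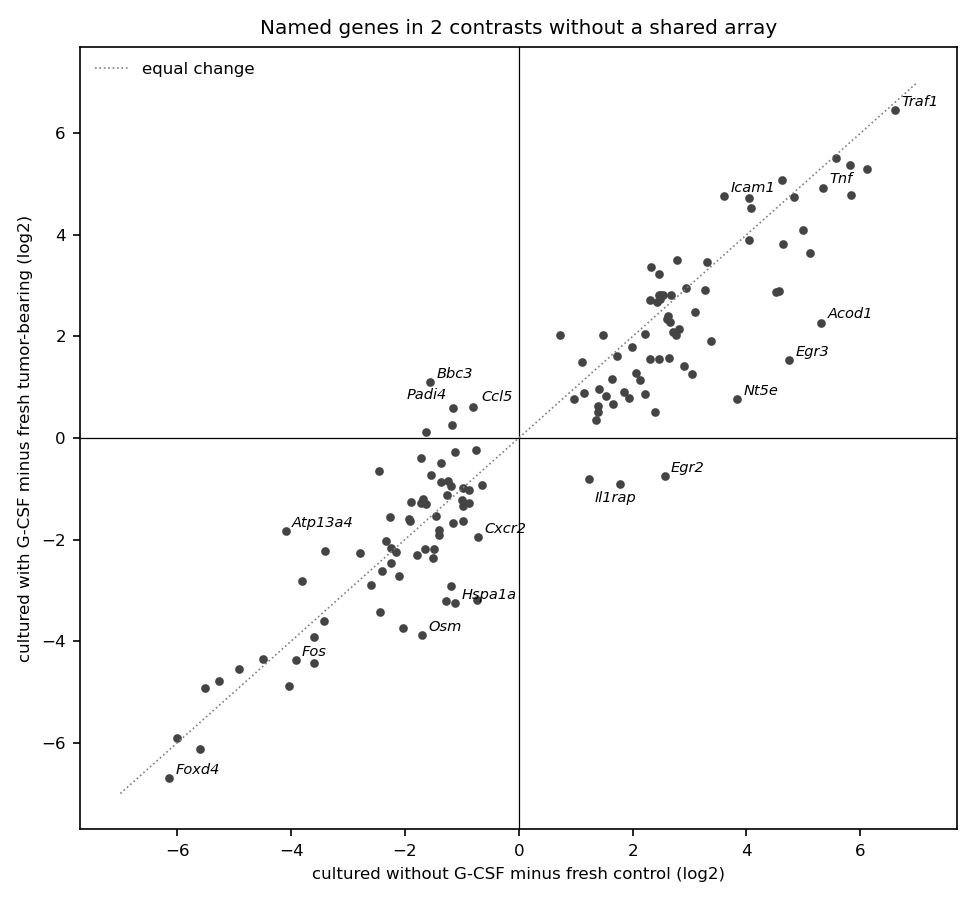
Change of named genes that passed the test after culture without G-CSF (log2, x axis) against their change in G-CSF culture over fresh tumor-bearing cells (log2, y axis), 1 point per gene, with a dotted line of equal change. Tnf lies at 5.35 and 4.93, and Bbc3 (-1.55 and 1.10), Egr2 (2.56 and -0.76) and Il1rap (1.78 and -0.90) lie in the quadrants of opposite sign.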

How the data were processed

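Total RNA of 10 neutrophil samples was measured on Illumina mouse bead arrays with 1 colour. The deposited tables give, per the file headers, a mean signal intensity per probe, the count of beads, the bead standard error and a detection p-value. The authors also deposited a processed log2 table, which matched quantile-normalized log2 signals to within 0.00531; Partek is named in the submitters' processing notes, and its version is not given in the sources used here. The median probe had 43 beads per array, and the number of arrays, 2 against 3, limits the precision.

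Intensities were background-corrected with limma 3.58.1 in R 4.3.3 (normexp with an offset of 16 and negative controls inferred from the detection p-values), put on a log2 scale and quantile-normalized over all 10 arrays. Probes with a detection p-value below 0.05 on 2 or more of the 5 arrays were tested with lmFit and eBayes, two-sided, with 3 residual degrees of freedom, and p-values were adjusted by Benjamini-Hochberg over all 15048 tested probes. Of these probes 12633 name 1 gene, through GEO's platform annotation with symbols updated from RefSeq, and they cover 8335 genes. Each gene is represented by its brightest tested probe. Errors after ± are standard errors of the fit (n = 2 and 3 arrays). The fit was tested on simulated data.

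The comparison, its members and the gene lists were chosen with earlier results of these data known. Named genes are the 15 largest rises and 15 largest falls with separated groups, up to 4 risers and 4 fallers per list by p, list members given with values that did not pass, Csf3r, the chemokine receptors and the added chemokines. Alternatives changed the background correction, scaling, filter, variance model, arrays in the fit and probe of a gene, and left out each array in turn. Promoter sequences are RefSeq's on GRCm38.p6.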

Additional observations from a re-analysis of the deposited data

Results flagged for a closer look

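For 6 named genes the change after culture had one sign without G-CSF and the other sign in G-CSF culture against fresh cells of tumor-bearing mice, each past the test. The differences below come from a limma fit of 10 arrays with 4 group means. The genes were picked for their opposite signs, which fixes that they differ, so the values are a description. The contrasts differ in G-CSF and in tumor, which cannot be told apart. Egr2, an early growth response factor, changed by 2.56 and -0.76, a difference of 3.32 on the log2 scale (SE 0.25). Il1rap differed by 2.68 (1.78 and -0.90) and Hif1a by 2.04 (1.23 and -0.81). In the other direction, Bbc3 differed by -2.65 (-1.55 and 1.10), Padi4 by -1.76 (-1.16 and 0.60) and Ccl5 by -1.43 (-0.81 and 0.61). The fall of Ccl5 without G-CSF was no longer past the test without either fresh replicate. The other probes of Bbc3 did not pass in that contrast.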

How the results depend on the processing

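The number of genes past the test lay between 3040 and 3960 under the alternatives of background, scaling, filter, variance model and arrays in the fit, against 3432, and no gene past the test changed sign in any of them. Leaving out 1 array gave 3949 to 5953 probes (1915 to 2816 higher, 2034 to 3137 lower) and 2196 to 3271 genes (1092 to 1585 higher, 1104 to 1686 lower); the lowest values came without fresh control replicate 1. Of the 3432 genes, 1242 have further tested probes, and on 605 of these every probe passed in 1 direction, a count chosen after seeing the data that leaves out genes with 1 probe. Of 148 genes followed, 132 kept their side of the threshold and direction under each of the 16 settings that tested them; 21 of the 148 were not tested with detection required on all 5 arrays. On another probe the direction turned for Fas (-0.95), H2-K1 (-2.88), H2-T10 (0.18), Txn1 (0.55) and H2-Ab1 (-5.61 and -0.75); the cause was not tested. The contrast with G-CSF and tumor gave 8277 probes, and 6866 to 7979 with 1 array left out. No paired analysis was possible because the cultured arrays carry no replicate numbers. With 2 fresh arrays, and signals near background for many probes, small changes are not resolved.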
